A study of Mus musculus with 9 samples.

Results

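The Hsp70 and Hsp110 genes encode ATP-driven chaperones that hold unfolded stretches of other proteins and help them fold. The set described here is 9 genes taken by name (Hspa1a, Hspa1b, Hspa2, Hspa8, Hspa4, Hspa4l, Hsph1, Hspa13 and Hspa14) of 55573 gene identifiers in the tables. All 9 were matched to 1 identifier each. They were followed in RNA sequencing of splenic CD4+ T cells from B6 mice. The samples were 3 naive libraries without activation, 3 libraries of cells activated for 3 hours in a 37 °C incubator and 3 activated for 3 hours at 39 °C. Cells were activated with plate-bound antibodies to CD3, part of the T cell receptor complex, and to CD28, its costimulatory partner. No genetic change is named for any group, and no age or sex of the mice is given. The submitters give CD4+ T cells as the RNA source, yet describe spleen cells as the cultured material. Whether the naive cells were kept in culture at all, and whether replicate libraries are different mice, is not given, so the p-values measure the spread between these libraries, which may be technical.

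An Hsp70 protein binds a client when it hydrolyses ATP, a step that J-domain proteins (Hsp40s) stimulate, and lets it go when ADP is exchanged for ATP. Hsp110 proteins are large relatives of Hsp70 that act as exchange factors for it, as do the Bag proteins. Many of these genes are targets of the heat shock factor HSF1, which binds repeats of a short element in their promoters. In lymphocytes they are also known to be induced when resting cells are stimulated to grow.

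Total counts were 12647692 to 17605549 per library, and 13328 genes had enough counts to be tested, all 9 Hsp70 and Hsp110 genes among them. The counts of no pair of libraries agreed within sampling noise. Naive library 1 stood apart from the other naive libraries, with a mean chi-square per gene of 44.1 and 25.0 against them and 10.4 between those 2, while activated pairs of the same temperature gave 2.14 to 10.1. The summed level of 10 CD4 T cell markers was 5490 to 7287 CPM (TMM-scaled counts) without activation, 5805 to 6136 at 37 °C and 6085 to 6568 at 39 °C, with all 10 detected in each group. The 10 B cell markers summed to 756 to 905 CPM without activation, 233 to 243 at 37 °C and 247 to 260.4 at 39 °C, and all 10 had counts in every group. The largest shift was in red blood cell markers. The 5 with enough counts to be tested summed to 134 to 225 CPM in naive, 2.79 to 3.22 at 37 °C and 2.94 to 4.18 at 39 °C. All 5 were called lower by edgeR at both temperatures against naive, beside 31.8% and 29.8% of all genes tested. Their median log2 fold change was -6.07 at 37 °C and -5.65 at 39 °C. Of 10 myeloid and neutrophil markers the sum was 52.9 to 77.1 CPM in naive, 38.8 to 45.6 at 37 °C and 41.5 to 49.5 at 39 °C. Ly6g was at 0 at both temperatures and S100a9 at 37 °C. Of the 6 tested, edgeR called 5 lower at each temperature against naive, beside 31.8% and 29.8% of all genes tested. The median log2 fold change of the 6 was -2.63 at each temperature, and the highest was 0.17 at 37 °C and 0.18 at 39 °C. The lists for CD8 T cells, NK cells and stroma also summed lower in every activated library than in every naive one, at 12.6 to 15.1 against 25.8 to 36.1 CPM, 7.29 to 12.7 against 19.98 to 22.6 CPM and 131 to 162 against 296 to 318 CPM. The stroma sum rests mostly on 1 gene, the only one of its 6 with enough counts to be tested, at 295 to 298 CPM in naive libraries. CD4 T cell markers also moved singly. At 37 °C against naive, 5 of the 10 were called lower and 2 higher by edgeR, beside 31.8% and 30.9% of all genes tested. Levels of these markers thus differed with activation. The part of other spleen cells in the activation results below was not tested. In bulk RNA, fewer cells of a type and less RNA per cell cannot be told apart.

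The promoters are shown first, since the members differ in the heat shock letters these windows hold. RefSeq start windows (GRCm38.p6, 250 bases before to 50 after the gene start) were found for 7 of the 9 genes. None was found for Hspa8 or Hspa13, so their promoters were not examined. The bases upstream of the start are printed for the twin genes Hspa1a and Hspa1b, for Hsph1 and for Hspa4. Hsph1 had the largest changes of the 9. The Hspa4 window holds no match, and Hspa4 rose 2.24-fold at 37 °C. Hspa4l is not printed, and its window holds no heat shock element. At 37 °C Hspa4l rose 8.82-fold, Hspa1a 3.93-fold and Hspa1b 2.47-fold. Whether such letters go with the size of a change was not tested. Capitals mark a heat shock element of 2 units (GAA, any 2 bases and TTC, or TTC, any 2 bases and GAA) or a CCAAT box (CCAAT, or ATTGG on the other strand).
Hspa1a, chr17:34972157-34972406, minus strand: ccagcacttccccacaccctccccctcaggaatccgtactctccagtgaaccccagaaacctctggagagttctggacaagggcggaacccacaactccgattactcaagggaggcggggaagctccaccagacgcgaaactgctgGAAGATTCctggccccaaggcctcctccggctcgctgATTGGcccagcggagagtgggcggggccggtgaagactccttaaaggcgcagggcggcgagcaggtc
Hspa1b, chr17:34959239-34959488, minus strand: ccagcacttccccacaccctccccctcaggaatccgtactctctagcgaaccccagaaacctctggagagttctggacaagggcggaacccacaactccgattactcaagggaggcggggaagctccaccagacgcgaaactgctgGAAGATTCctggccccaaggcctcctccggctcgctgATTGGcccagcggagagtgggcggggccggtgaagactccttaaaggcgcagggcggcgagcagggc
Hsph1, chr5:149636337-149636586, minus strand: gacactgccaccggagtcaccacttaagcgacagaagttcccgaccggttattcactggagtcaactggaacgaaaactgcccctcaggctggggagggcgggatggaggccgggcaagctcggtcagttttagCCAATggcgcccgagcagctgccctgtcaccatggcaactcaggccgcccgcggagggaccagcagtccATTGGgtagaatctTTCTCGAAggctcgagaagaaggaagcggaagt
Hspa4, chr11:53300480-53300729, minus strand: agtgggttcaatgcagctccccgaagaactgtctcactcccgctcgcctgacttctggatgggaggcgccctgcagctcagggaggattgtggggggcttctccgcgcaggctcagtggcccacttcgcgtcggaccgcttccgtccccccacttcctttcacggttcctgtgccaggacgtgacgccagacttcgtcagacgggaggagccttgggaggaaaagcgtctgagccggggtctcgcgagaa

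The Hspa1a and Hspa1b stretches were identical at 247 of 250 bases and each held 1 element of 2 units, from -104 to -97, where -1 is the base before the start. Hsph1 held 1 such element at -33 to -26. Past the Hsph1 start, at 37 to 49 with the start counted as 1, lay an element of 3 units, TTCTGGAAAGTTC, the 1 match in the 7 genes to 3 such alternating units of GAA and TTC, each 2 bases from the next. It also counts as 2 overlapping elements of 2 units. RefSeq lists another Hsph1 start 21 bases downstream, whose window holds the same matches. In all, 3 of the 7 genes had an element of 2 units and 1 had one of 3 units. Of all 32851 windows in the table, 15.1% held the former and 0.603% the latter, on either strand. A CCAAT box was found in 5 of the 7 genes (37.4% of all windows) and a GC box, GGGCGG on either strand, in 6 (35.7%). No window of the 7 held TATAAA (13.6% of all windows). Hspa2, Hspa4l, Hspa14 and Hspa4 had no element of 2 or 3 units in these windows. A match of letters is not a binding site, and a window without one says nothing about the factor.

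**Figure D1:**
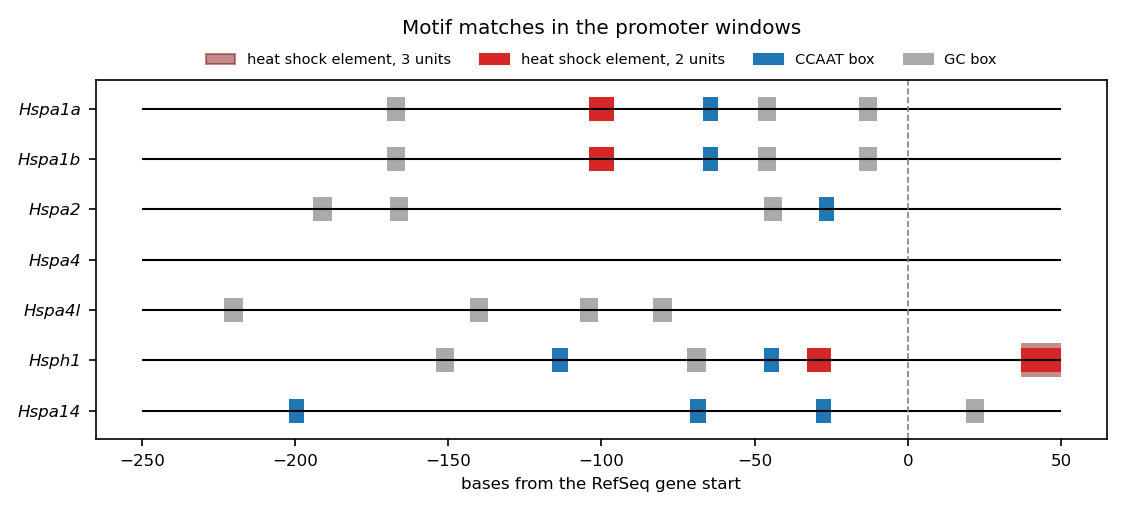
Motif matches along the 300-base RefSeq windows of 7 genes; the x axis is the distance in bases from the gene start (dashed line), and Hsph1 is drawn from the more upstream of its starts. Heat shock elements of 2 units (red) are drawn for Hspa1a, Hspa1b and Hsph1, and an element of 3 units (pale, taller) for Hsph1 alone of the 7.

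The first comparison, 37 °C against naive, addressed stimulation at normal body temperature. Of the 9 genes 8 rose, 0 fell and 1, Hspa2, was not called, by edgeR's quasi-likelihood test with Benjamini-Hochberg adjustment over all genes. Of all genes tested, 30.9% rose and 31.8% fell. The median log2 fold change of the 9 was 1.30, beside -0.0025 over all genes. The rises spanned from 1.40-fold for Hspa14 to 16.2-fold for Hsph1, and the largest were in the Hsp110 genes Hsph1 and Hspa4l. All 8 calls held without any 1 library, naive library 1 included. Together the 9 genes made up 0.146% ± 0.0074 of all naive counts, a share that was 0.581% ± 0.0138 after activation at 37 °C and 0.412% ± 0.0061 after activation at 39 °C (SD, n = 3). Their summed level was 1444 ± 99.6, 5852 ± 159 and 4147 ± 86.6 CPM in the same order. The summed level at 37 °C was higher than in naive cells by 2.02 on the log2 scale, and that at 39 °C was higher by 1.52. Each difference had p = 0.1 in a 2-sided exact permutation test, the smallest that 3 against 3 samples allow.

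The second comparison set the fever-range incubator, 39 °C, against 37 °C after equal stimulation. Of the 9 genes 3 fell (Hsph1, Hspa1b and Hspa8), 0 rose and 6 were not called, while 0.623% of all genes tested fell and 0.135% rose. DESeq2 called 0 of the 9 higher too, and the 3 genes with a positive value had unadjusted edgeR p from 0.463 to 0.915. In 6 of the 9 genes every 39 °C library lay below every 37 °C library (10.3% of all genes tested). The median log2 fold change of the 9 was -0.32, beside 0.0041 over all genes. The fall of Hsph1 was the steepest and kept its call without any 1 library, whereas those of Hspa8 and Hspa1b were lost without any 1 of the 6 activated libraries, which leaves 1 of the 9 called. Against naive cells, 8 of the 9 genes were higher at 39 °C and 0 lower (29.2% and 29.8% of all genes tested), with a median of 1.05 against -0.0027 over all genes. The 3 comparisons share libraries and are not independent of each other.

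**Figure D2:**
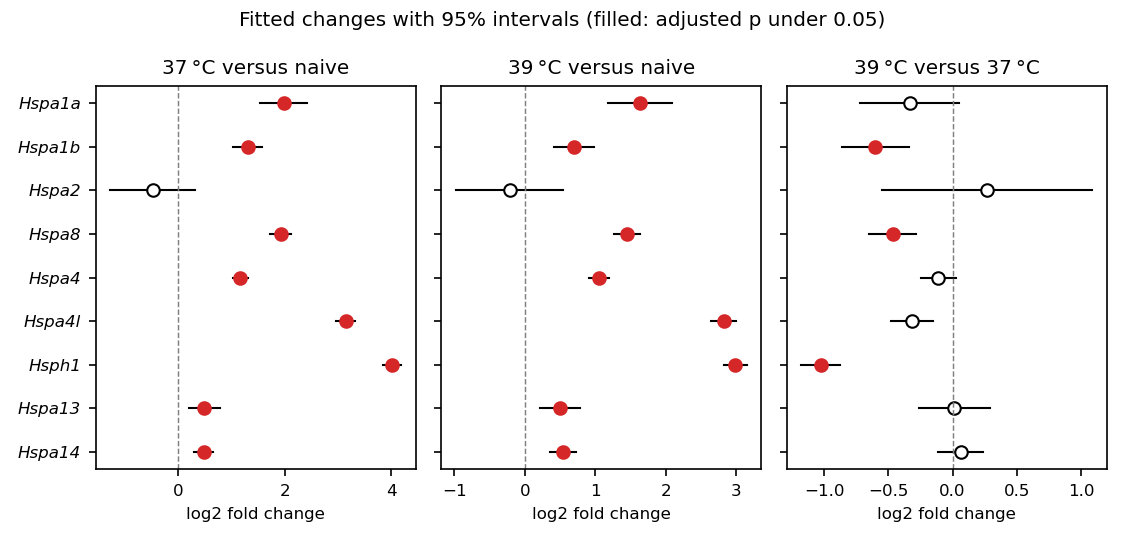
Fitted log2 fold changes of the 9 genes (x axis, a separate scale in each panel) with 95% intervals for the 3 comparisons, filled where the adjusted p is under 0.05. Against naive cells 8 of 9 genes lie to the right of 0 and are filled, and at 39 °C against 37 °C Hsph1, Hspa1b and Hspa8 are filled to the left of 0.

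Among the Hsp70 proteins proper, Hspa8 encodes the constitutive cytosolic form, which folds new proteins and uncoats clathrin vesicles (ENSMUSG00000015656, chromosome 9, 40800984 to 40810087, plus strand, up to 9 exons in a transcript; these and later gene positions are from GRCm38 with the GENCODE M21 annotation). Its level was 1134, 999.6 and 1180.1 CPM in naive libraries 1 to 3, 4192, 4032 and 4329 CPM at 37 °C and 3139, 3013 and 2923 CPM at 39 °C. The 3 groups did not overlap, and the 39 °C libraries lay between the others. Hspa8 rose at 37 °C by a log2 fold change of 1.92 ± 0.088 (SE, adjusted p = 3.76e-09) and was 1.45 ± 0.087 above naive at 39 °C. Between the temperatures it fell by 0.47 ± 0.085 on the log2 scale (adjusted p = 0.0254). That value stayed between -0.50 and -0.44 without any 1 library, but the adjusted p was 0.1004 to 0.210 without any 1 activated library. In CPM, 62.4% of the rise above naive at 37 °C was present at 39 °C.

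Hspa1a and Hspa1b encode the classical heat-inducible Hsp70, which is scarce in unstressed cells. They lie 9951 bases apart on the minus strand of chromosome 17 (Hspa1a, ENSMUSG00000091971, 34969190 to 34972156; Hspa1b, ENSMUSG00000090877, 34956436 to 34959238), each as a single exon. Their coding parts were identical at 1916 of 1923 aligned bases (99.6%), and the stretches 3′ of them at 78.4%. Of the 100-base windows of the Hspa1a transcript, 47.1% also occur letter for letter in Hspa1b. How reads that match both genes were counted is not given in the sources used here, so each single value is uncertain.

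Hspa1a was read 19, 13 and 25 times in the naive libraries, 68, 76 and 56 times at 37 °C and 69, 45 and 51 times at 39 °C. In CPM these were 1.31, 0.911 and 1.41 in naive, 4.86, 5.24 and 4.35 at 37 °C and 4.30, 3.58 and 3.55 at 39 °C. The naive libraries were lowest, and 39 °C library 1 lay just under 37 °C library 3. Hspa1a rose at 37 °C by 1.98 ± 0.20 on the log2 scale (adjusted p = 4.67e-06). At 39 °C against 37 °C it stood at -0.33, with a 95% interval from -0.72 to 0.049 (adjusted p = 0.716).

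Hspa1b had 5.22, 5.19 and 5.13 CPM in naive, 12.1, 14.1 and 12.1 at 37 °C and 9.41, 8.42 and 7.39 at 39 °C. No groups overlapped, and the naive libraries were nearly level. Its rise at 37 °C was 1.30 ± 0.13 (adjusted p = 2.69e-06), and its fall at 39 °C was -0.60 ± 0.12 (adjusted p = 0.0456). Without any 1 activated library or naive library 3 the value was between -0.70 and -0.52 and was not called (adjusted p 0.0757 to 0.291). It was also not called with upper-quartile scaling (adjusted p = 0.0523). With the pair summed to 1 gene, the change between the temperatures was -0.52 (adjusted p = 0.0648), and the rise at 37 °C was 1.46 and called. Summed levels of the pair were 6.39 ± 0.252 CPM without activation, 17.6 ± 1.51 at 37 °C and 12.2 ± 1.39 at 39 °C (SD, n = 3). Every 39 °C library lay below every 37 °C library in this sum, and both groups lay above naive.

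The share of the pair's counts assigned to Hspa1a was 20%, 14.9% and 21.6% in naive libraries, 28.6%, 27.1% and 26.4% at 37 °C and 31.4%, 29.8% and 32.5% at 39 °C. The shares of the 3 groups did not overlap, but each naive one rests on only 87 to 116 counts. The 95% Wilson intervals of single libraries, which cover counting error only, spanned 8.95% to 29.9% in naive, 20.9% to 34.6% at 37 °C and 23.1% to 40.2% at 39 °C, and so overlapped between groups. The part of read assignment in these shares was not tested.

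Hspa2, an Hsp70 known mainly for its role in male germ cells (ENSMUSG00000059970, chromosome 12, 76404176 to 76406938), was the member with the fewest counts, 8 to 38 per library. It was at 1.12 to 2.14 CPM without activation, 0.572 to 1.47 at 37 °C and 1.05 to 1.56 at 39 °C, with all groups overlapping. The log2 fold change at 37 °C was -0.48, with an interval from -1.28 to 0.31, and that between the temperatures was 0.27, from -0.55 to 1.09. At this depth the counts are compatible with any difference within these intervals.

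Hspa13 encodes Stch, a short Hsp70 of the microsomal compartment that lacks the peptide-binding part (ENSMUSG00000032932, chromosome 16, 75745431 to 75767104). It was at 11.8 to 15 CPM without activation, 18.5 to 19.5 at 37 °C and 15.6 to 21.2 at 39 °C. Both activated groups lay above the naive one and overlapped each other. The rise at 37 °C was 0.49 ± 0.13 (adjusted p = 0.00593) and that at 39 °C 0.51 ± 0.13 (adjusted p = 0.00533). Between the temperatures it stood at 0.014, with an interval from -0.27 to 0.29.

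Hspa14 encodes the Hsp70 of the ribosome-associated complex, which works on chains leaving the ribosome with the J-domain protein of Dnajc2 (Hspa14, ENSMUSG00000109865, chromosome 2, 3488850 to 3512814). Naive libraries had 56.1 to 66.7 CPM, 37 °C libraries 84.2 to 85.8 and 39 °C libraries 82.4 to 97.2. The rise was 0.48 ± 0.082 at 37 °C (adjusted p = 0.000299) and 0.54 ± 0.082 at 39 °C (adjusted p = 0.000123). At 39 °C against 37 °C it was 0.062, with an interval from -0.12 to 0.24. Its partner Dnajc2 rose by 0.73 ± 0.064 at 37 °C and stood at 0.12 ± 0.063 between the temperatures (adjusted p = 0.732).

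**Figure D3:**
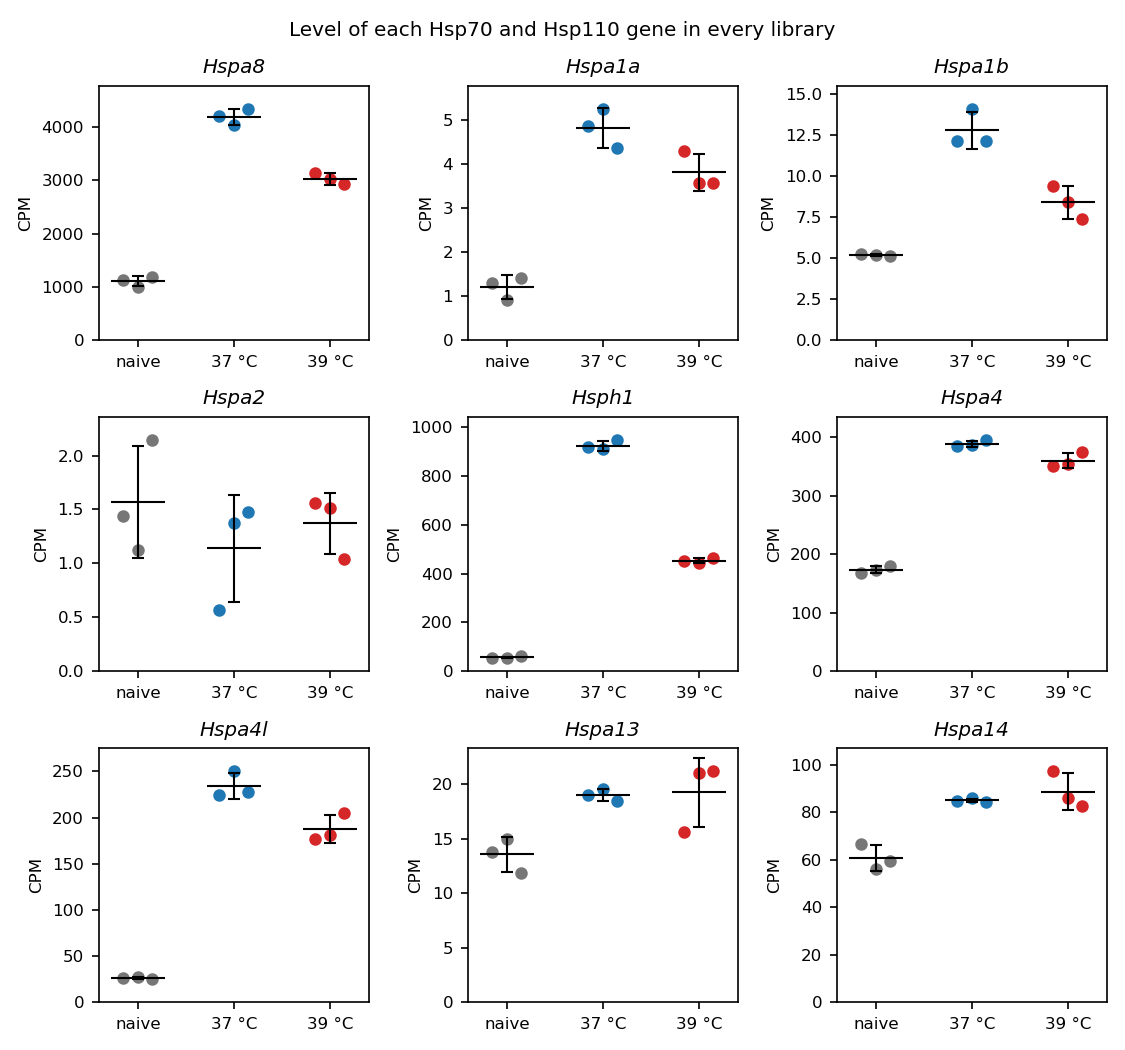
Level in CPM (y axis from 0, a separate scale for each gene) of the 9 genes in every library; points are libraries, and bars are the mean and SD of 3. Hsph1 goes from 54.0 to 61.3 CPM without activation to 907 to 945 at 37 °C and 445 to 464 at 39 °C, whereas Hspa13 and Hspa14 overlap between the temperatures.

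The Hsp110 class holds Hsph1, Hspa4 and Hspa4l, which exchange the nucleotide of Hsp70 and hold unfolded proteins themselves. Hsph1 encodes the stress-inducible member (ENSMUSG00000029657, chromosome 5, 149614287 to 149636376, minus strand). Its level was 54.0, 55.7 and 61.3 CPM in naive libraries, 915, 907 and 945 at 37 °C and 450.2, 445 and 464 at 39 °C. Spread within each group was small beside the gaps between groups, with an SD of 2.18% of the mean at 37 °C and 2.21% at 39 °C. The rise at 37 °C was 4.02 ± 0.079 on the log2 scale (adjusted p = 5.92e-12), the 65th largest of 13328. Between the temperatures it fell by 1.03 ± 0.070 (adjusted p = 2.83e-05), the 76th largest fall, and 45.8% of its rise in CPM was present at 39 °C. Without any 1 library this fall was -1.04 to -1.01 and called each time.

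Hspa4l encodes Apg-1, a relative with high levels in testis (ENSMUSG00000025757, chromosome 3, 40744495 to 40796103). It had 26.9, 27.4 and 25.3 CPM in naive libraries, 224, 250.2 and 227 at 37 °C and 177, 181 and 205 at 39 °C. The temperature groups did not overlap, with 39 °C library 3 the nearest to the 37 °C group. Hspa4l rose by 3.14 ± 0.085 at 37 °C (adjusted p = 4.97e-11) and by 2.82 ± 0.084 at 39 °C. Between the temperatures it stood at -0.32 ± 0.075, which was not called (adjusted p = 0.119). It was called by DESeq2 (adjusted p = 0.0236), with the 6 activated libraries fitted alone (adjusted p = 0.0122) and without naive library 1 (adjusted p = 0.0231), at -0.32 in each.

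Hspa4 encodes Apg-2, the broadly expressed exchange factor (ENSMUSG00000020361, chromosome 11, 53259814 to 53300457, minus strand). It was at 168, 173 and 181 CPM in naive libraries, 385, 386 and 395 at 37 °C and 351, 354 and 374 at 39 °C. All 39 °C libraries lay just under the 37 °C ones. The rise at 37 °C was 1.16 ± 0.064 (adjusted p = 1.83e-08), and the value between the temperatures was -0.11, with an interval from -0.25 to 0.027 (adjusted p = 0.749). In CPM, 86.7% of the Hspa4 rise and 77.7% of the Hspa4l rise were present at 39 °C.

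Within a library the ratio of 2 genes does not depend on how libraries are scaled. Hsph1 had 3.06 ± 0.24 reads per kilobase of exon for every 100 of Hspa8 without activation, 13.1 ± 0.227 at 37 °C and 8.87 ± 0.469 at 39 °C (SD, n = 3). The log2 difference of the Hsph1 ratio was 2.09 at 37 °C against naive and -0.56 between the temperatures, and no groups overlapped. The Hspa4 ratio lay the other way, at 12.3 ± 1.02 in naive, 7.23 ± 0.189 at 37 °C and 9.27 ± 0.635 at 39 °C, again without overlap. Hspa4l stood at 0.882 ± 0.11, 2.04 ± 0.192 and 2.27 ± 0.26 per 100 of Hspa8, and its 2 activated groups overlapped. Of 15 exact permutation tests, 2-sided, on 5 such ratios in the 3 comparisons, 13 gave p = 0.1 (adjusted p = 0.115), the smallest that 3 against 3 samples allow. The others were Hspa4l per Hspa8 between the temperatures (p = 0.3, exact) and Hsph1 per Hspa4l at 39 °C against naive (p = 0.2, exact).

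**Figure D4:**
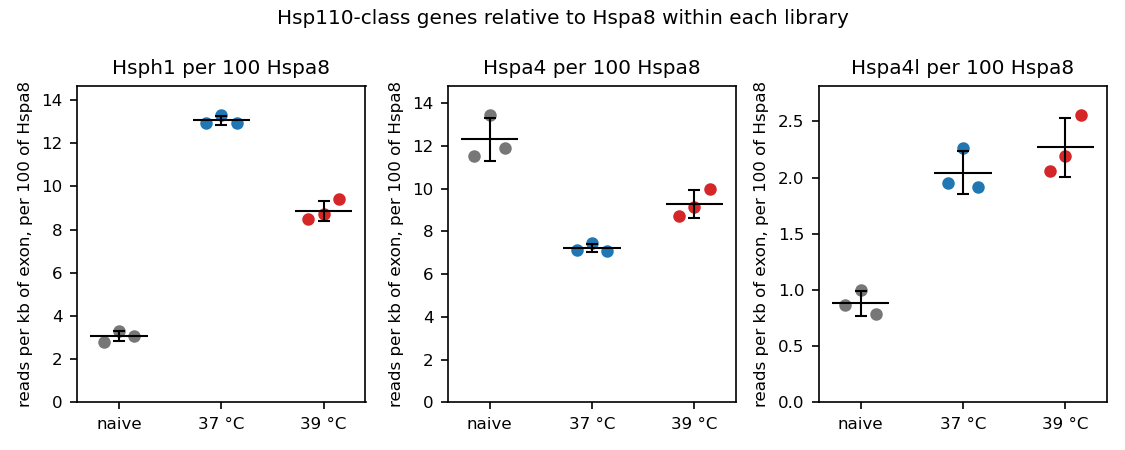
Reads per kilobase of exon of Hsph1, Hspa4 and Hspa4l for every 100 of Hspa8 in each library (y axis from 0, a separate scale in each panel), with the mean and SD of 3. Hsph1 goes from 3.06 to 13.1 and 8.87, Hspa4 from 12.3 to 7.23 and 9.27, and Hspa4l overlaps between 37 °C and 39 °C.

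Levels of different genes were compared per kilobase of exon, scaled to a common total over all genes (TPM). Hspa8 led in every group, at 791 ± 58.0 TPM in naive, 3245 ± 49.1 at 37 °C and 2287 ± 3.94 at 39 °C (SD, n = 3). It made up 80.7%, 79.7% and 80.3% of the total of the 9 genes in that order, so its share moved little while the sum changed. Hspa4 came next in naive cells (97.3 ± 11.4 TPM), followed by Hspa14 (46.1 ± 0.855) and Hsph1 (24.3 ± 3.14), none of which overlapped its neighbours. At 37 °C Hsph1 was next after Hspa8, at 423 ± 5.93 TPM, and its share of the total went from 2.48% to 10.4%. At 39 °C Hspa4 (212 ± 14.7) and Hsph1 (203 ± 10.9) overlapped. Lower in the order, Hspa13 overlapped both Hspa4l above it and Hspa1b below it in naive cells. Hspa14 overlapped Hspa4l at 37 °C, and Hspa1b overlapped Hspa13 at 39 °C. Hspa4l and Hspa1b did not overlap in naive cells. Hspa2 and Hspa1a were lowest in naive cells and overlapped. With the length of the transcript that has the longest coding part, an alternative chosen after seeing the data, Hsph1 stood above Hspa4 at 39 °C without overlap (272 ± 16.0 against 147 ± 10.9). Hspa13 then ranked above Hspa4l in naive cells, with overlap, and above Hspa1b at 39 °C, without overlap. Under this length Hspa4 (66.5 ± 8.35) and Hspa14 (59.5 ± 1.49) overlapped in naive cells, Hspa1b and Hspa13 overlapped at 37 °C, and Hspa14 (92.0 ± 3.35) lay above Hspa4l (48.0 ± 4.18) at 37 °C without overlap. In naive cells Hspa1b then lay below Hspa13, and Hspa1a below Hspa2, without overlap.

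Partners of the Hsp70 cycle were followed from lists. For comparison, 30.9% of all genes tested rose and 31.8% fell at 37 °C against naive. At 39 °C against 37 °C, 0.135% rose and 0.623% fell. Of 16 J-domain genes 11 rose and 3 fell at 37 °C (median 0.59), and 2 fell and 0 rose at 39 °C against 37 °C (median -0.026). The 2 that fell were Dnaja4, a stress-linked Hsp40, at -0.85 ± 0.15 (adjusted p = 0.0182), and Dnajb2, which passes clients to the proteasome, at -0.48 ± 0.075 (adjusted p = 0.0108). Dnaja4 went from 7.46 CPM in naive to 20.3 at 37 °C and 11.2 at 39 °C. Among other Hsp40 genes of the cytosol, Dnaja1 (-0.29 ± 0.088, adjusted p = 0.273) and Dnajb1 (-0.30 ± 0.08, adjusted p = 0.179) were not called between the temperatures. With the 6 activated libraries fitted alone both were called (adjusted p = 0.00721 and 0.00435), and so they were without naive library 1 (adjusted p = 0.0104 and 0.0128).

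Of 7 exchange factors outside the Hsp110 class 3 rose and 0 fell at 37 °C (median 0.18), beside 30.9% and 31.8% of all genes tested. Between the temperatures 1, Bag3, fell (list median -0.075), beside 0.623% of all genes tested. Bag3, which links Hsp70 to autophagy, was at 15.3, 13.5 and 14.8 CPM in naive libraries, 15.7, 16.1 and 17.5 at 37 °C and 10.8, 9.06 and 10.6 at 39 °C. Its level did not change beyond the threshold at 37 °C (0.18 ± 0.10, adjusted p = 0.146) and at 39 °C lay below both other groups (-0.69 ± 0.11 against 37 °C, adjusted p = 0.00912, and -0.51 ± 0.11 against naive, adjusted p = 0.00121). The 8 called Hsp70 and Hsp110 genes, by contrast, were above naive at both temperatures.

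Among 10 genes of the handover to Hsp90, 6 rose and 0 fell at 37 °C (median 0.35), beside 30.9% and 31.8% of all genes tested. Between the temperatures 3 fell (list median -0.090), beside 0.623% of all genes tested. Stip1 (Hop), which bridges Hsp70 and Hsp90, went from 107 to 538 and 364 CPM and fell by 0.57 ± 0.071 on the log2 scale (adjusted p = 0.00202). The Hsp90 genes Hsp90aa1 (-0.64 ± 0.067, adjusted p = 0.000567) and Hsp90ab1 (-0.46 ± 0.076, adjusted p = 0.0145) fell too. Without 1 activated library the calls of Dnaja4 and Hsp90ab1 were lost in each case, those of Dnajb2 in 4 of 6 and that of Bag3 in 2 of 6, with values of -0.90 to -0.81, -0.48 to -0.44, -0.54 to -0.44 and -0.74 to -0.62 in that order. The calls of Stip1 and Hsp90aa1 held without any 1 library.

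The Hsp70 genes of other compartments rose on activation and were not called between the temperatures. Hspa5 (BiP), the Hsp70 of the endoplasmic reticulum, rose by 0.88 ± 0.066 at 37 °C and stood at 0.022 ± 0.066 between the temperatures (adjusted p = 0.958). Hspa9 (mortalin), that of mitochondria, rose by 1.65 ± 0.065 and stood at 0.077 ± 0.063 (adjusted p = 0.854). Hyou1, the Hsp110 relative of the endoplasmic reticulum, rose by 1.14 ± 0.09 and stood at -0.046 ± 0.088 (adjusted p = 0.935). In this list of 6, which adds Hspa1l, Hspa12a and Hspa12b, 4 rose and 1 fell at 37 °C. Over all genes tested the shares were 30.9% and 31.8%. The 1 that fell was Hspa12a, named after its value was seen, at -3.09 ± 0.36 (adjusted p = 1.17e-05). Between the temperatures edgeR called 0 of the list, with 1 (Hspa1l, named after its value was seen) at an unadjusted p under 0.05. DESeq2 also called 0. Over all genes tested edgeR called only 0.758% between the temperatures, and 7.96% had an unadjusted p under 0.05.

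Of the heat shock factors, Hsf1 encodes the main activator of these promoters and Hsf2 a partner of it. Hsf1 was at 109 CPM without activation, 177 at 37 °C and 156 at 39 °C, rose by 0.70 ± 0.063 at 37 °C (adjusted p = 1.39e-06) and stood at -0.18 ± 0.062 between the temperatures (adjusted p = 0.396). Hsf2 rose by 0.37 ± 0.093 at 37 °C and stood at -0.14 ± 0.092. Hsf4, which was at 1.17 CPM in naive, fell at 37 °C (-1.50 ± 0.41). Of 4 factor genes tested edgeR called 0 between the temperatures, with 1, Hsf1, at an unadjusted p under 0.05. DESeq2 called 0 as well. The edgeR shares over all genes tested were 0.758% called and 7.96% with an unadjusted p under 0.05. HSF1 protein and its activity were not measured.

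**Figure D5:**
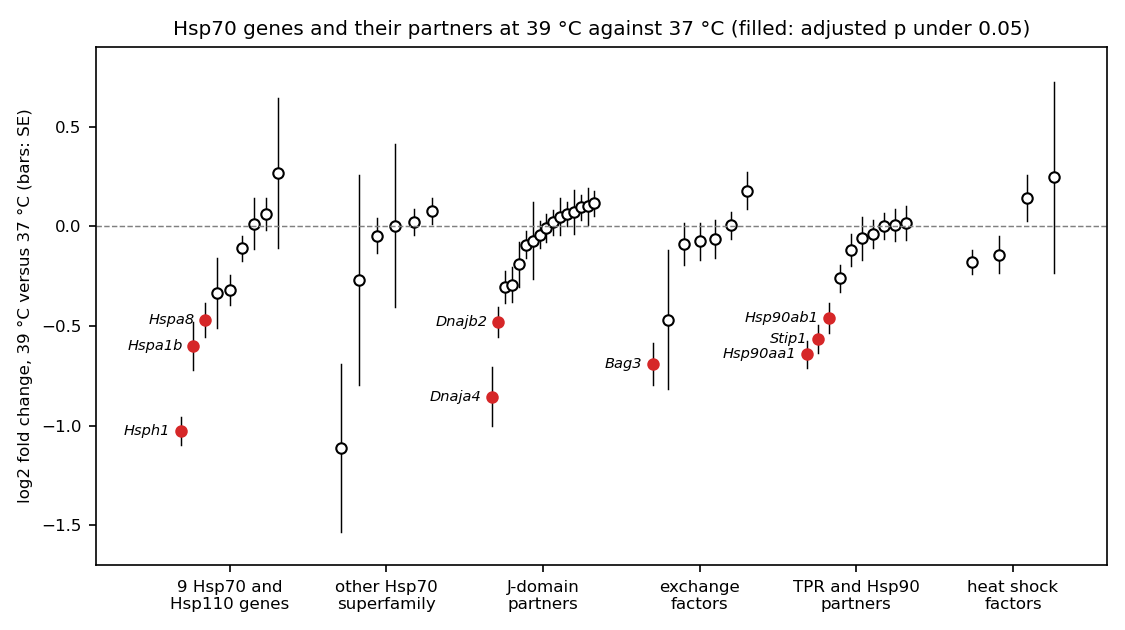
Log2 fold change at 39 °C against 37 °C (y axis) for the 9 genes and for lists of their partners; points are genes with the standard error of the fit, filled where the adjusted p is under 0.05. The filled points, Hsph1, Hspa1b, Hspa8, Dnaja4, Dnajb2, Bag3, Hsp90aa1, Stip1 and Hsp90ab1, all lie below 0.

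Genes with the most similar profile were sought among 9037 genes averaging 5 CPM or more, by the root mean square difference of centred log2 CPM over the 9 libraries. Nearest to Hspa8 was Hsp90ab1, at 0.061 (Pearson's r = 0.997), with 1277, 4953 and 3600.4 CPM in the 3 groups. For Hspa4 the nearest were the ribosome assembly genes Utp6 (0.039) and Imp4 (0.047) and the adaptor gene Sh2d2a (0.051). Hspa4l was nearest to Pde4a (0.154), Gramd1b (0.155) and Lonrf1 (0.157). Hsph1, which had the largest changes of the 9, had larger distances than Hspa8, Hspa4 and Hspa4l. Its nearest gene was Slc5a3, the inositol transporter, at 0.238 (Pearson's r = 0.991), with 17.2, 262 and 176 CPM. Vwce (0.261, r = 0.991) and Fam83g (0.298, r = 0.987) followed. Distances of the low-count gene Hspa2 were as large, at 0.251 to 0.297. Such distances describe 9 libraries that share 3 group means and were given no test.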

How the data were processed

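The authors deposited raw counts of reads per Ensembl gene for 9 libraries, with no normalization. Per the labels' protocols, total RNA was isolated with TRIzol and libraries were made with the TruSeq RNA kit. GRCm38 is the genome build in the submitters' processing notes, which also list HISAT2, HTSeq, FastQC and DESeq2 without versions or roles. Which tool counted the reads, the strand setting and the treatment of reads that match several genes are not given in the sources used here.

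Symbols and positions came from GENCODE M21, which matched 55480 of 55573 identifiers. Counts were filtered with filterByExpr (minimum count 10, minimum total 15), scaled by TMM and fitted over all 9 libraries with edgeR 4.0.16 in R 4.3.3, by the quasi-likelihood test. Benjamini-Hochberg adjustment covered the 13328 genes tested, and the threshold was an adjusted p of 0.05. The procedure was checked on simulated data. CPM are TMM-scaled, and levels per length use all exon bases of a gene. Similar profiles used log2 CPM with a prior count of 2. Sums and within-library ratios were tested by exact permutation of samples.

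Total counts of 12647692 to 17605549 per library leave low-count genes such as Hspa2 imprecise. The 9 genes and all lists were chosen with earlier results of these data known. For 1 marker list only the genes that passed the count filter are reported here. All 9 were named; from each partner list, genes called between 39 °C and 37 °C were named, or otherwise the 3 with the smallest adjusted p against naive. Dnaja1, Dnajb1, Stip1, Bag3, Hsf1, Hsf2, Hspa5, Hspa9 and Dnajc2 were named whatever their values. Alternatives were other scalings (DESeq2-type size factors, upper-quartile, library size), filters and tools (DESeq2 1.42.0), a replicate block, the 6 libraries of a contrast alone, the summed Hspa1a and Hspa1b pair, and each library left out in turn. Sequences were aligned with Biopython 1.88. A planned comparison of protein sequences was not made, and the DNA of the Hspa1a and Hspa1b pair was compared in its place.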

Additional observations from a re-analysis of the deposited data

How the results depend on the processing

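The 8 rises against naive cells at each temperature were called under all 18 alternatives, with the pair of Hspa1a and Hspa1b counted as 1 where it was summed. Upper-quartile scaling shifted the median of all genes at 37 °C against naive to -0.14 and that at 39 °C to -0.13. It split the calls at 37 °C into 3340 higher and 5139 lower, beside 4114 and 4240. At 39 °C the split was 3092 and 4914, beside 3887 and 3968. Between the temperatures, the number of the 9 genes called lower was 1 to 4 when 1 library was left out. It was 1, Hsph1, without any 1 activated library, and 4, with Hspa4l added, without naive library 1. Over all genes the main 18 higher and 83 lower calls became 136 and 265 with the 6 activated libraries alone, 38 and 113 with DESeq2, and 43 and 133 with no filter. Leaving out naive library 1 gave 89 and 202, and leaving out naive library 2 gave 30 and 122. Without any 1 activated library they were 7 to 8 higher and 30 to 43 lower; fewer samples enter these fits.

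Some values near 0, none of them called, changed sign when 1 library was left out. Between the temperatures their ranges were -0.054 to 0.48 for Hspa2, -0.062 to 0.15 for Hspa13, -0.014 to 0.11 for Hspa14, -0.0032 to 0.045 for Hspa5 and -0.14 to 0.60 for Hsf4. Hspa2 at 39 °C against naive ranged from -0.40 to 0.094. Hspa2 was too low to test at a minimum count of 30. The cause of these changes was not tested.

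The replicate numbers of the labels were tried as a pairing. Deviations of same-numbered libraries of different groups correlated at -0.17 to 0.33, and those of different-numbered ones at -0.34 to 0.36. The 2 ranges are alike, so this check cannot tell whether the samples are paired. With the replicate block, 8 genes rose at 37 °C, 2 fell between the temperatures and 8 rose at 39 °C against naive. Hspa1b then stood at -0.60 (adjusted p = 0.0535), and no call of another of the 9 genes changed. The block gave 16 higher and 81 lower calls over all genes between the temperatures.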
